A study of Zea mays with 9 samples.

Results

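The deposited tables hold 39305 gene identifiers. From these, 7 maize genes were picked by identifier as genes of auxin synthesis and transport. They are spi1 (GRMZM2G025222), GRMZM2G127160, bif2 (GRMZM2G171822) and the 4 PIN genes PIN1a (GRMZM2G098643), PIN1b (GRMZM2G074267), PIN1c (GRMZM2G149184) and PIN10a (GRMZM2G126260). GRMZM2G127160 was picked under the name vt2, but the RefSeq gene table lists it as TA1, so it is called TA1 below. RNA was sequenced from field-grown maize tassels of 2 to 4 mm, all in the inbred background B73. The groups were wildtype (n = 3 libraries), ndl1 (n = 4) and Bif1;Bif4 (n = 2). The ndl1 plants carried a mutation in zmftsh10, a gene for an FtsH-type protease, and their samples included severely affected tassels on which some axillary meristems had still formed. The Bif1;Bif4 plants were double heterozygous mutants, called the double heterozygotes where that reads more easily, and the affected genes encode Aux/IAA repressors of the auxin response.

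Auxin is made from tryptophan by an aminotransferase followed by a flavin monooxygenase of the YUCCA family, and it is moved from cell to cell by PIN efflux carriers whose place in the plasma membrane sets the direction of flow. In the maize inflorescence, auxin maxima precede each axillary meristem, and plants that lack spi1, a YUCCA-like monooxygenase, or bif2, a protein kinase related to Arabidopsis PINOID, form few branches and spikelets. In Arabidopsis, PINOID phosphorylates PIN proteins.

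The libraries held 16863087 to 22533736 reads in genes. All 21 of the tassel inflorescence markers that could be matched by name had reads in every wildtype library. The levels of the mutated genes did not check the labels: NDL1 differed by -0.05 ± 0.08 in ndl1 (adjusted p = 0.743, limma), and in Bif1;Bif4 BIF1 differed by -0.51 ± 0.50 (adjusted p = 0.589, limma) and BIF4 by -0.52 ± 0.34 (adjusted p = 0.406, limma). The deposited values are normalized counts, that is, reads divided by a size factor of the library. Levels below are on 1 scale for all 9 libraries, and no level is compared between genes, since gene lengths were not used here. Fold changes come from limma fitted to all genes on log2(normalized count + 1), with Benjamini-Hochberg adjustment over all genes tested and a threshold of 0.05. Whether each library had its own plants is not stated in the labels, so a p-value here speaks of variation among these libraries, which may be technical. In whole tassels, fewer cells of a type and less RNA per cell cannot be told apart.

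In ndl1 tassels 1 of the 6 members that could be tested passed the threshold, PIN10a, which rose. Among all 22416 genes tested 3.16% were called, 1.94% higher and 1.22% lower. PIN10a was also the 1 member called by edgeR and by DESeq2 on the recovered reads, which called 3.05% and 9.87% of all genes. Together with spi1, bif2 and PIN1a, it made up the 4 of 6 members with an unadjusted p under 0.05, beside 22% of all genes tested. In Bif1;Bif4 tassels 0 of 6 members passed, beside 4.28% of the 22381 genes tested, 2.23% higher and 2.05% lower, and 2 of 6 members, bif2 and PIN10a, had an unadjusted p under 0.05, beside 23.3% of all genes. By edgeR on the recovered reads 0 members passed in Bif1;Bif4, beside 4.22% of all genes, and by DESeq2 bif2 and PIN10a did, beside 9.41%. Between the mutants themselves 0 of 6 members passed with limma, edgeR or DESeq2, where limma called 3.47% of 23203 genes (1.68% higher, 1.79% lower), edgeR 3.31% and DESeq2 7.03%. Of the 6 members spi1 alone had an unadjusted p under 0.05 there with limma, beside 18.1% of all genes, which is about the share that 1 of 6 makes. Both comparisons with wildtype share the same 3 wildtype libraries. The median log2 fold change of the tested members was -0.05 in ndl1 and 0.14 in Bif1;Bif4, beside -0.0011 and 0.0026 for all genes tested.

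**Figure D1:**
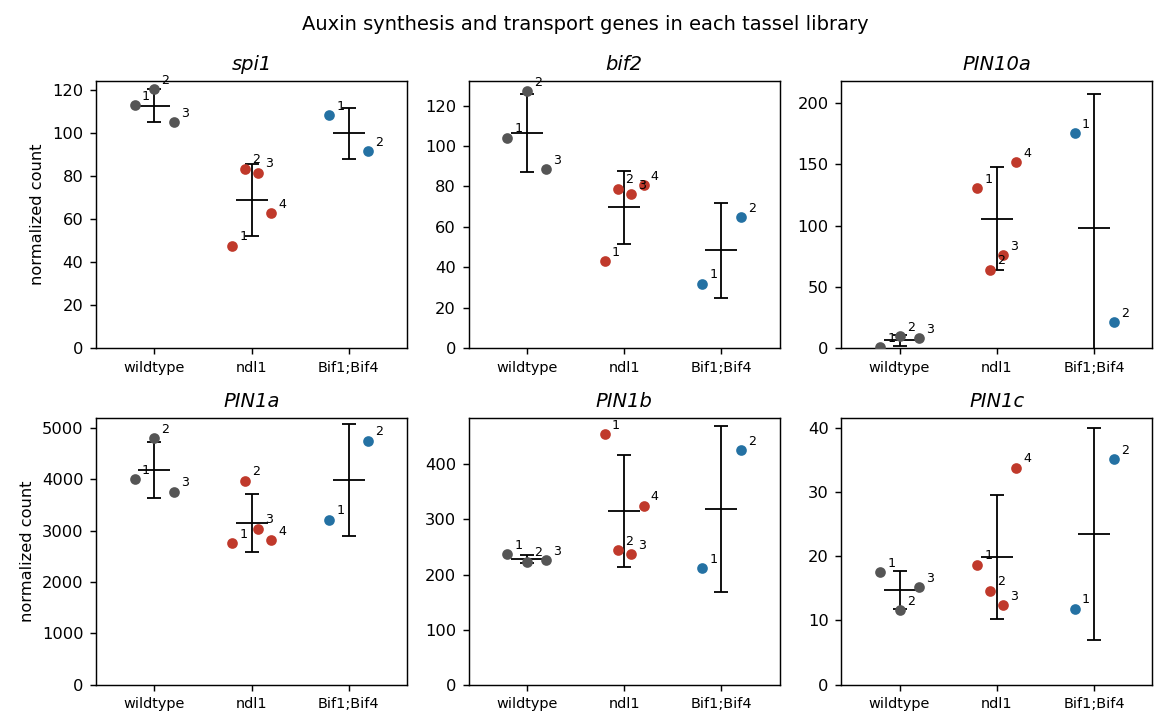
Normalized counts of the 6 members with enough reads to be tested, on a vertical axis that starts at 0, in wildtype (grey), ndl1 (red) and Bif1;Bif4 (blue), where each point is a library with its replicate number, and bars are the mean ± SD, the bar of PIN10a in Bif1;Bif4 being cut off at 0. PIN10a lies at 9.70 or below in the wildtype libraries and at 21.3 or above in every mutant library.

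Of the synthesis genes, spi1 was read in all libraries. Its normalized counts were 113, 120 and 105 in wildtype, 47.6, 83.3, 81.4 and 62.6 in ndl1, and 108 and 91.4 in Bif1;Bif4. Every ndl1 library lay below every wildtype and every double heterozygous library, while 1 double heterozygous library lay within the wildtype range and the other below it. The mean in ndl1 was 68.7 ± 16.9 (SD, n = 4) against 113 ± 7.73 (SD, n = 3), and the log2 fold change of -0.74 ± 0.22 (SE) did not pass, with an adjusted p of 0.106 by limma and a 95% interval of -1.24 to -0.24. The ratio of the means was 0.610. In the double heterozygotes the difference from wildtype was -0.18 ± 0.17 (adjusted p = 0.581, limma), with an interval of -0.59 to 0.23. The direct difference of Bif1;Bif4 from ndl1 was 0.56 ± 0.24 on the log2 scale (adjusted p = 0.255, limma), and its interval ran from 0.03 to 1.10. In the authors' deposited table, spi1 had a log2 fold change of -0.58 with an adjusted p of 0.0604 in ndl1 and of -0.14 with 0.795 in Bif1;Bif4.

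TA1, the other identifier picked as a synthesis gene, was all but unread. A single read, in ndl1 replicate 2, was counted among the 178063066 reads of the 9 libraries, and the other 8 libraries held 0, a count whose one-sided 95% upper limit is about 3 reads in a library. It did not pass the filter on low counts and has no fold change. Whether another identifier holds vt2 was not looked for, so these counts need not be those of vt2.

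The kinase gene bif2 had its highest values in wildtype. Its normalized counts were 104, 127 and 88.5 in wildtype, 42.9, 78.8, 76.1 and 80.5 in ndl1, and 31.8 and 64.8 in Bif1;Bif4. All 6 mutant libraries lay below the lowest wildtype library, and 1 of the double heterozygous libraries lay below all ndl1 libraries. The group means were 107 ± 19.4 in wildtype (SD, n = 3), 69.6 ± 17.9 in ndl1 (SD, n = 4) and 48.3 ± 23.3 in Bif1;Bif4 (SD, n = 2). The log2 difference from wildtype was -0.63 ± 0.26 in ndl1 (adjusted p = 0.195, limma), with an interval of -1.22 to -0.05. In the double heterozygotes it was -1.20 ± 0.33 (adjusted p = 0.0935, limma), with an interval of -1.99 to -0.41. DESeq2 on the recovered reads gave bif2 in the double heterozygotes a log2 fold change of -1.15 with an adjusted p of 0.0431. The authors' deposited table gives a log2 fold change of -0.67 with an adjusted p of 0.0487. Between the mutants the difference was -0.56 ± 0.34 (adjusted p = 0.426, limma), and its interval of -1.33 to 0.21 spans 0.

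Reads of spi1 and bif2 were also set against each other within a library, a ratio that no scaling changes. There were 0.947 to 1.18 spi1 reads for each bif2 read in wildtype and 0.778 to 1.11 in ndl1. Among the double heterozygotes the ratio was 3.40 and 1.41, above all 7 other libraries. This ratio was not tested.

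Among the carriers, PIN10a, of a PIN subfamily described in monocots, had the largest log2 difference of the members in both comparisons with wildtype. Only 1, 10 and 7 reads of it were counted in wildtype, against 140, 57, 86 and 153 in ndl1 and 193 and 20 in Bif1;Bif4. As normalized counts these were 0.973, 9.70 and 8.15 in wildtype, 131, 64.2, 76.1 and 152 in ndl1, and 175 and 21.3 in Bif1;Bif4. The groups did not overlap in either comparison with wildtype, and the double heterozygous libraries differed from each other more than the ndl1 libraries did.

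PIN10a rose in ndl1 by 4.12 ± 0.60 on the log2 scale (SE), with an adjusted p of 0.0133 by limma and a 95% interval of 2.74 to 5.50, and was higher in 4 of 4 libraries. The ratio of the means was 16.9. It passed the filter on low counts through the mutant libraries, so that its presence among the tested genes depended on the groups in which it is high. With wildtype replicate 1, which held 1 read, left out, the difference was 3.34. In the double heterozygotes the difference was 3.42 ± 1.04 (adjusted p = 0.114, limma), with an interval of 0.94 to 5.90. It was 1.93 without Bif1;Bif4 replicate 1, 4.91 without replicate 2 and 2.66 without wildtype replicate 1. Tests on the recovered reads gave PIN10a in the double heterozygotes an adjusted p of 0.0749 with edgeR and of 0.00129 with DESeq2. In the authors' deposited table, PIN10a has a log2 fold change of 1.97 in ndl1 (adjusted p = 1.54e-10) and of 0.72 in Bif1;Bif4 (adjusted p = 0.00462). The log2 fold changes by DESeq2 on the recovered reads were 4.09 and 3.98, so the deposited ones are smaller for the same libraries. Why they differ was not tested. The mutants were not told apart by PIN10a, with a difference of -0.68 ± 0.87 (adjusted p = 0.732, limma).

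PIN1a, a PIN efflux carrier gene, had normalized counts of 4002, 4802 and 3763 in wildtype, 2759, 3974, 3043 and 2819 in ndl1, and 3214 and 4757 in Bif1;Bif4. In ndl1, 3 of the 4 libraries lay below all wildtype libraries and replicate 2 lay within their range. The difference in ndl1 was -0.42 ± 0.14 (adjusted p = 0.139, limma), with an interval of -0.74 to -0.10. Without ndl1 replicate 2 the adjusted p was 0.0308 (limma), at a difference of -0.54. That was the 1 call of PIN1a in ndl1 over 15 other settings, in which its adjusted p reached 0.434 (limma, without wildtype replicate 2). In the double heterozygotes the groups overlapped and the difference was -0.10 ± 0.18 (adjusted p = 0.794, limma), with an interval of -0.52 to 0.33, and between the mutants it was 0.33 ± 0.19 (adjusted p = 0.395, limma).

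PIN1b, a further carrier gene, had a narrow range in wildtype, with normalized counts of 237, 223 and 226. The ndl1 libraries stood at 455, 244, 237 and 325, and those of the double heterozygotes at 212 and 425. In the scaling of the ndl1 table the lowest ndl1 library lay just above the highest wildtype library, and in the scaling over 9 libraries just below it. The log2 difference was 0.41 ± 0.22 in ndl1 (adjusted p = 0.303, limma) and 0.39 ± 0.27 in Bif1;Bif4 (adjusted p = 0.441, limma), and neither passed. PIN1c, also a carrier gene, had 12 to 34 reads per library, and its normalized counts were 17.5, 11.6 and 15.1 in wildtype, 18.7, 14.6, 12.4 and 33.8 in ndl1, and 11.8 and 35.1 in Bif1;Bif4. Its groups overlapped, with differences of 0.32 ± 0.38 in ndl1 (adjusted p = 0.663, limma) and 0.46 ± 0.51 in Bif1;Bif4 (adjusted p = 0.636, limma), and the interval in ndl1 ran from -0.56 to 1.20.

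In ndl1, 2 of the 6 members (PIN10a and PIN1b) lay above wildtype with no overlap in the table's own scaling and 2 (spi1 and bif2) below, beside 9.51% and 10.6% of all genes tested. In Bif1;Bif4 PIN10a lay above and bif2 below with no overlap, where 20.9% and 21.2% of all genes tested did so. Between the mutants spi1 alone did not overlap and was higher in Bif1;Bif4, beside 14.5% of all genes tested. In the authors' deposited tables the adjusted p was under the threshold for PIN10a in ndl1, beside 8.85% of all genes, and for bif2 and PIN10a in Bif1;Bif4, beside 8.78%.

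**Figure D2:**
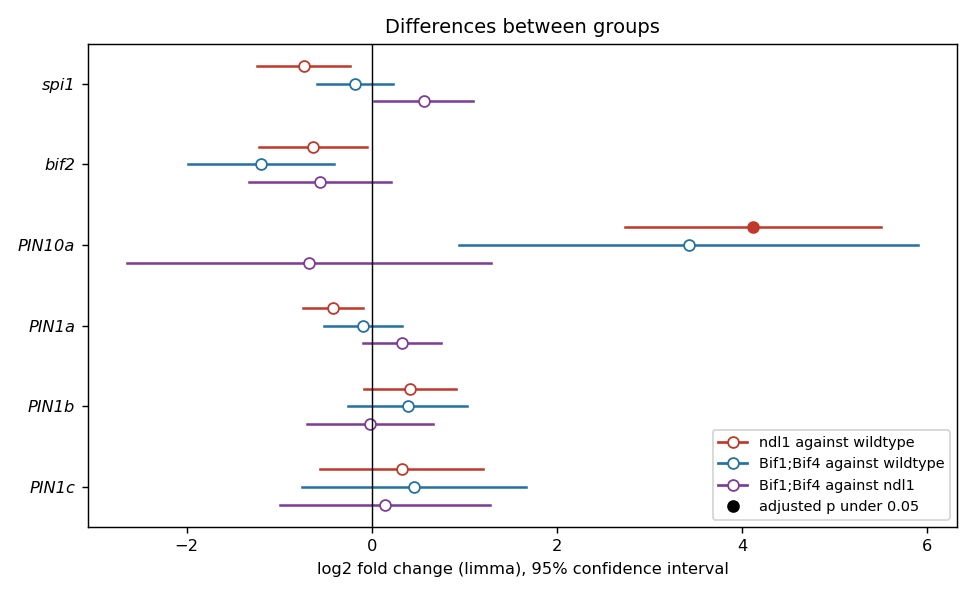
Log2 fold changes of the 6 tested members (horizontal axis) with 95% confidence intervals from limma, for ndl1 against wildtype (red), Bif1;Bif4 against wildtype (blue) and Bif1;Bif4 against ndl1 (purple). A filled point has an adjusted p under 0.05. PIN10a in ndl1, at 4.12, is the filled point, and the interval of PIN10a in Bif1;Bif4 runs from 0.94 to 5.90.

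The reads of the 4 PIN members were also divided by their sum in each library. This gives shares of reads that no scaling changes and that are not per length. The 4 shares of a library make up the whole, so a higher share of PIN10a or PIN1b lowers that of PIN1a. Other PIN genes are outside that sum, so these are not shares of all PIN reads. PIN1d alone had 10148 reads in the wildtype libraries, where PIN1a had 12299. PIN1a took 94.0%, 95.2% and 93.8% of the summed reads in wildtype, 82.0%, 92.5%, 90.3% and 84.7% in ndl1, and 89.0% and 90.8% in Bif1;Bif4. Every mutant library was below every wildtype library. The share of PIN10a was 0.0228%, 0.192% and 0.203% in wildtype, 3.89%, 1.49%, 2.26% and 4.57% in ndl1, and 4.85% and 0.406% in Bif1;Bif4.

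In the second double heterozygous library the PIN10a share had an exact binomial 95% interval of 0.248% to 0.626%, which overlaps the intervals of 2 of the 3 wildtype libraries. Such intervals cover counting error only. The share of PIN1b was 4.42% to 5.63% in wildtype, and it was 13.5%, 5.69%, 7.04% and 9.76% in ndl1 and 5.86% and 8.11% in Bif1;Bif4. There were 16.7 to 21.5 PIN1a reads for each PIN1b read in wildtype, 6.07 to 16.3 in ndl1, and 15.2 and 11.2 in Bif1;Bif4, so that every mutant library was below the wildtype range. These shares and ratios were not tested.

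**Figure D3:**
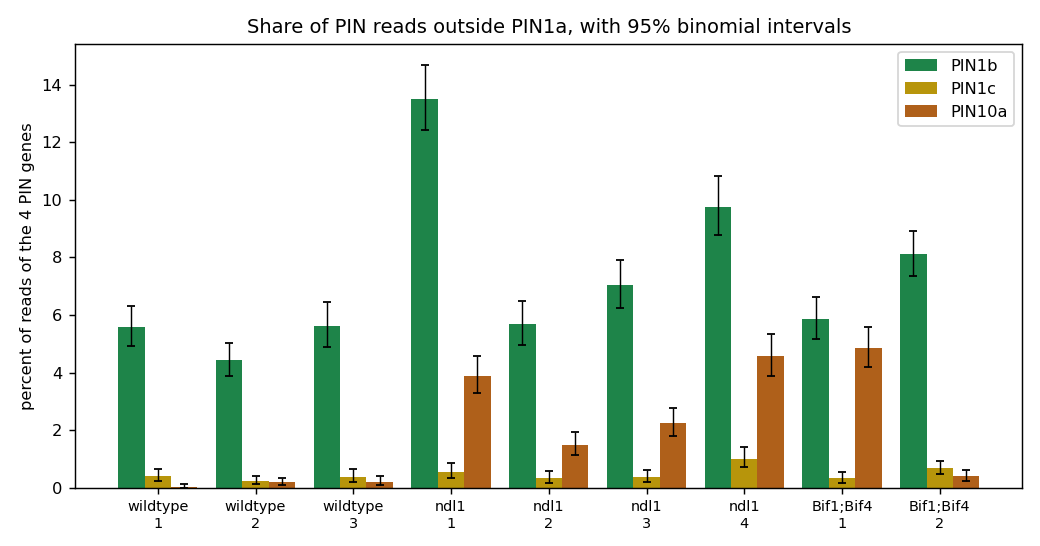
Percent of the summed reads of the 4 PIN members that fell on PIN1b (green), PIN1c (yellow) and PIN10a (brown) in each of the 9 libraries, with exact binomial 95% intervals, PIN1a taking the remainder. The PIN1b share is highest in ndl1 replicate 1 at 13.5%, and the PIN10a share in Bif1;Bif4 replicate 1 at 4.85%.

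PIN10a and PIN1b were both highest among the ndl1 libraries in replicates 1 and 4. Vascular and secondary wall genes had their highest summed levels of that group in the same libraries. The 10 genes of that list summed to 11712, 9246, 10666 and 12306 normalized counts in ndl1, to 9039 to 10555 in wildtype and to 12255 and 10729 in Bif1;Bif4. In Bif1;Bif4 the library with the higher sum, replicate 1, had the higher PIN10a (175, against 21.3) but the lower PIN1b (212, against 425). Of the list's 7 tested genes 1 rose in ndl1, the lignin gene ccr2 (1.36 ± 0.29 on the log2 scale, adjusted p = 0.0483, limma), beside 1.94% of all genes. In Bif1;Bif4 1 of 7 rose, rld2 (0.41 ± 0.08, adjusted p = 0.0405, limma), beside 2.23% of all genes. The 21 tassel inflorescence markers summed to 35193 and 32058 in ndl1 replicates 1 and 4, to 41449 and 40325 in replicates 2 and 3, to 41761 to 46704 in wildtype, and to 41013 and 42668 in the double heterozygotes. Of these 21 markers 4 fell in ndl1, BA1, TD1, baf1 and nam1, beside 1.22% of all genes, and 7 fell in Bif1;Bif4, beside 2.05%. Leaf photosynthesis genes summed to 852 to 1059 in ndl1, to 1097 to 1411 in wildtype and to 1467 and 912 in the double heterozygotes. The 4 epidermis genes summed to 5378 to 5751 in ndl1, to 5472 to 6164 in wildtype and to 5080 and 4398 in the double heterozygotes, where both libraries lay below every wildtype library. Of these 4 genes ocl4 fell in Bif1;Bif4 by 0.70 ± 0.10 on the log2 scale (adjusted p = 0.0203, limma), beside 2.05% of all genes. In ndl1 0 were called, beside 3.16% of all genes. The part of cell makeup in the levels of the members was not tested.

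Most other genes listed for synthesis were hardly read. The list was matched by name, with the members added, and need not hold every synthesis gene. Of its 10 genes, 8, with TA1 among them, had 0 to 13 reads over all libraries and were not tested. Besides spi1 the tested gene was Yucca6, named as another YUCCA-type monooxygenase. Its normalized counts averaged 57.2 ± 10.3 in wildtype (SD, n = 3), 93.7 ± 21.5 in ndl1 (SD, n = 4) and 89.6 ± 8.52 in Bif1;Bif4 (SD, n = 2). Its log2 differences from wildtype, 0.69 ± 0.22 in ndl1 (adjusted p = 0.123, limma) and 0.65 ± 0.24 in Bif1;Bif4 (adjusted p = 0.163, limma), did not pass. Their sign is opposite to that of spi1, which did not pass either and whose interval in Bif1;Bif4, -0.59 to 0.23, spans 0.

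Of the 12 transport genes 8 were tested, with PIN10a alone called in ndl1, beside 3.16% of all genes, and 0 called in Bif1;Bif4, beside 4.28%. The median log2 fold change was 0.37 in ndl1 and 0.41 in Bif1;Bif4, beside -0.0011 and 0.0026 for all genes tested. Of the 8 values 5 were above 0 in ndl1 and 7 in Bif1;Bif4. The PIN members described above are among these 8 genes, and the medians were not tested. br2, an ABCB transporter that exports auxin and whose loss dwarfs the stalk, had normalized counts of 795 ± 42.6 in wildtype (SD, n = 3), 1719 ± 603 in ndl1 (SD, n = 4) and 987 ± 23.1 in Bif1;Bif4 (SD, n = 2). Its log2 difference of 1.05 ± 0.23 in ndl1 had an adjusted p of 0.0521 (limma). Over 15 other settings, adjusted p for br2 in ndl1 ranged from 0.00014 to 0.199, with 6 under the threshold. aux1, named as an auxin import carrier, differed by -0.12 ± 0.13 in ndl1 (adjusted p = 0.618, limma) and by 0.42 ± 0.12 in Bif1;Bif4 (adjusted p = 0.0954, limma). PIN1d differed from wildtype by -0.10 ± 0.16 and 0.39 ± 0.13, and PIN8 by 0.50 ± 0.25 and 0.89 ± 0.35, in ndl1 and Bif1;Bif4 in that order, and none of these passed.

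The conjugation list, also matched by name, need not hold every conjugation gene. It held only GH3, named for a family with members that link auxin to amino acids. Its normalized counts were 177, 121 and 165 in wildtype, 437, 310, 593 and 462 in ndl1, and 261 and 662 in Bif1;Bif4. All mutant libraries were above all wildtype libraries. Among all genes tested, 9.51% lay above wildtype with no overlap in ndl1 and 20.9% in Bif1;Bif4. GH3 rose in ndl1 by 1.52 ± 0.22 on the log2 scale (adjusted p = 0.0133, limma), but without wildtype replicate 2 its adjusted p was 0.0772 (limma). In the double heterozygotes the difference was 1.44 ± 0.38 (adjusted p = 0.0839, limma), and the adjusted p by DESeq2 was 0.00108.

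**Figure D4:**
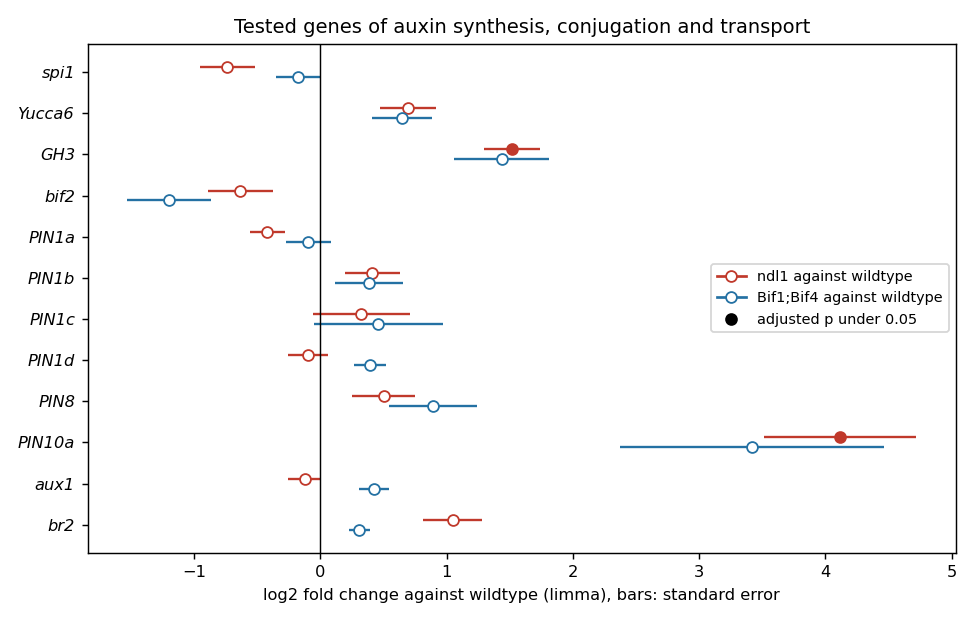
Log2 fold changes against wildtype (horizontal axis) of the 12 tested genes of auxin synthesis, conjugation and transport, bif2 included, with standard errors from limma, for ndl1 (red) and Bif1;Bif4 (blue). A filled point has an adjusted p under 0.05. PIN10a at 4.12 and GH3 at 1.52, both in ndl1, are the filled points.

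Downstream of transport, 33 of the 40 listed perception and response genes were tested in ndl1, of which 3 rose and 0 fell, beside 1.94% and 1.22% of all genes. These were the response factor genes ARF3 (0.69 ± 0.14, adjusted p = 0.0401, limma) and ARF9 (0.60 ± 0.11, adjusted p = 0.0296, limma) and the Aux/IAA gene AUX3 (1.05 ± 0.19, adjusted p = 0.0296, limma). Of 34 tested in the double heterozygotes, ARF13 rose by 0.60 ± 0.10 (adjusted p = 0.0331, limma). ARF11 fell by 0.73 ± 0.11 (adjusted p = 0.0219, limma), and AUX10, an Aux/IAA gene, fell by 2.38 ± 0.38 (adjusted p = 0.0260, limma). Among all genes 2.23% were called higher and 2.05% lower in that comparison. Between the mutants 2 of 34, AUX36 and AUX6, were higher in Bif1;Bif4, where 1.68% of all genes were called higher, by 1.80 ± 0.37 (adjusted p = 0.0328, limma) and 0.68 ± 0.14 (adjusted p = 0.0355, limma). The list was matched by name and held response factor and Aux/IAA names but no receptor gene. BIF1, mutated in the double heterozygotes, is in it under the name AUX22. The list's median was 0.06 in ndl1 and 0.27 in Bif1;Bif4, beside -0.0011 and 0.0026 for all genes tested. The 8 called genes of this list were named after their values were seen. For each of them leaving out any of at least 3 of the libraries ended the call, wildtype replicate 2 among them in each case.

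For each tested member, the RefSeq-named genes with the nearest profile over the 9 libraries were taken by the root mean square difference of centred log2 levels, with 4915 candidates for spi1, bif2, PIN1a and PIN10a and 4916 for PIN1b and PIN1c. The nearest to spi1 were gpm791, at 0.115, and bZIP92, at 0.125, where the profile of spi1 itself has a root mean square of 0.41. gpm791 had normalized counts of 929, 995 and 831 in wildtype, 414, 662, 702 and 461 in ndl1, and 808 and 608 in Bif1;Bif4. For bif2 the nearest were HRGP at 0.246 and pco100822 at 0.338, against its own root mean square of 0.57. For PIN1a they were gpm84 at 0.126 and AY109916 at 0.142, against 0.29, and for PIN1b pco136952 at 0.171 and pco115279a at 0.210, against 0.39. For PIN1c they were cl19799_1 at 0.337 and pco082608 at 0.349, against 0.54, and for PIN10a cl27985_1a at 0.974 and TIDP3581 at 1.05, against 2.11. cl27985_1a stood at 36.0, 48.5 and 39.6 in wildtype, at 272, 269, 258 and 429 in ndl1, and at 247 and 71.2 in Bif1;Bif4. All 9 libraries enter each distance, so a likeness between a member and its nearest genes follows from the choice. The distances were not tested.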

How the data were processed

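RNA was measured in 9 tassel libraries. The submitters' processing notes list Trimmomatic, HTSeq, DESeq2 and TopHat2 2.1.1. Genome build, annotation and the strand option of the counter are not given in the sources used, so that reads of similar PIN copies, antisense genes or overlapping genes are uncertain. The deposited signal values are normalized counts, made by the authors from reads and a size factor per library, per the values and the file headers. The deposited log2 fold changes, the test statistic (a score) and the p-values are the authors' own, per the file headers. For every tested member the deposited fold changes against wildtype were smaller in size than those of DESeq2 on the recovered reads. In every library 100% of values were whole reads within 0.1, so reads were recovered, and the wildtype reads of both tables were the same. Same-group libraries had a chi-square of 9.35 to 37.9 per degree of freedom, and none was treated as a copy.

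Each table was fitted with limma 3.58.1 (R 4.3.3, intensity trend) on log2(normalized count + 1) after edgeR's filterByExpr at a minimum count of 10, and Bif1;Bif4 against ndl1 was fitted over 9 libraries scaled together. Adding 1 makes changes of genes with few reads look smaller. edgeR 4.0.16 (quasi-likelihood), DESeq2 1.42.0, pseudocounts of 0.5 and 5, no filter, TMM scaling, left-out libraries, a replicate block and a single fit of the 9 libraries were alternatives. The limma step was tested on simulated data. The 7 members and the 9 gene lists were chosen with earlier results of these data known, and list genes were matched by name. Besides the members, the text names called genes of the synthesis, transport, kinase and conjugation lists, the mutated genes and the 2 RefSeq-named genes with the nearest profile and a mean normalized count of at least 50, and other names were chosen after their values were seen. Names came from the RefSeq table of Zm-B73-REFERENCE-NAM-5.0, in which 5 of the 7 members were found, PIN1b and PIN1c being named as in the rule that chose them. Levels per length, promoter motifs and protein sequences were not analysed here.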

Additional observations from a re-analysis of the deposited data

Results flagged for a closer look

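The lowest ndl1 value of bif2, a normalized count of 42.9 in replicate 1, stood apart from the other 3 ndl1 libraries, which lay at 76.1 to 80.5. Its gap to the nearest of them was 0.883 of the range of the group, above Dixon's 95% critical value for 4 samples. The highest and lowest ndl1 values of the 6 tested members gave 12 such tests, and chance passes about 5% of groups. Without that library the log2 difference of bif2 in ndl1 was -0.42 (adjusted p = 0.313, limma), so bif2 did not pass with or without it.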

How the results depend on the processing

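PIN10a in ndl1 was called in 14 of 15 alternatives, with log2 differences of 3.31 to 4.56. Of the 3 members that were not called in ndl1 but had an unadjusted p under 0.05, PIN1a passed without ndl1 replicate 2, which made 2 members called in place of 1 (leaving out each library in turn gave 1 to 2). DESeq2 called 2 members in Bif1;Bif4 in place of 0. Over all genes, 708 were called in ndl1, 2210 by DESeq2 and 111 to 1467 with each library left out. In Bif1;Bif4 957 were called, 2105 by DESeq2 and 1 to 1299 with a library left out, the lowest counts being 1 without wildtype replicate 2, 29 without Bif1;Bif4 replicate 2 and 48 without replicate 1. Between the mutants 806 were called, 1628 by DESeq2 and 152 to 897 with a library left out. With 1 Bif1;Bif4 library left, that library is assumed to vary like the other group. The cause of these shifts was not tested.

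The replicate numbers were not shown to pair the libraries, since deviations of same-numbered libraries correlated at -0.107 to 0.217 in ndl1 and at -0.217 and -0.172 in Bif1;Bif4. With the replicate block, in which only libraries with a shared number carry the difference, 365 genes and 0 members were called in ndl1, where PIN10a differed by 3.91 (adjusted p = 0.0715, limma), and 431 genes and 0 members in Bif1;Bif4. PIN1d in ndl1 turned to 0.0504 with the block.

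Signs turned only for differences that did not pass. Leaving out a library gave ranges of -0.20 to 0.0504 for PIN1d in ndl1 and, in Bif1;Bif4, of -0.38 to 0.19 for PIN1a, -0.12 to 0.89 for PIN1b and -0.29 to 1.21 for PIN1c. Between the mutants it gave -0.52 to 0.48 for PIN1b, -0.60 to 0.89 for PIN1c, -2.17 to 0.81 for PIN10a, -0.75 to 0.59 for GH3, -0.14 to 0.10 for Yucca6 and -0.0529 to 0.85 for PIN8. There edgeR and DESeq2 gave 0.0136 and 0.0115 for PIN1b and 0.0335 and 0.0323 for GH3. Of the single-gene values under alternatives, 547 kept sign and call, 46 lost the call, 16 gained it and 21 turned sign. At 1 to 10 wildtype reads, the size of the PIN10a change is limited by depth, and 2 Bif1;Bif4 libraries limit every comparison that uses them.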

Other observations

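The read counts of spi1 and Yucca6, both named as YUCCA-type monooxygenases, were set against each other after their values were seen. There were 1.76, 1.94 and 2.31 spi1 reads for each Yucca6 read in wildtype, 0.537, 1.07, 0.979 and 0.50 in ndl1, and 1.29 and 0.956 in Bif1;Bif4. Every mutant library was below every wildtype library. The ratio uses no scaling between libraries, is not per length and was not tested.

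In the RefSeq table spi1 and PIN10a lie on the same chromosome, with 14 genes between them, of which 9 are protein coding and 7 have an identifier in the deposited tables. In ndl1, where spi1 differed by -0.74 and PIN10a by 4.12 on the log2 scale, 3 of these 7 were tested and 0 called, at -0.30 to 2.25. The highest value belonged to GRMZM2G370193 (2.25 ± 0.72, adjusted p = 0.124, limma), whose mean normalized count over the 9 libraries was 13.2. This gene did not pass the filter on low counts in Bif1;Bif4, where the wildtype libraries are the same. Its presence among the genes tested in ndl1 thus depended on the group in which it is high. In Bif1;Bif4 2 of the 7 were tested, without GRMZM2G370193, and 0 called, at 0.01 to 0.13.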
